A study of Homo sapiens with 3 samples.

Results

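The genes described here are 46 genes of mitosis and of the G2/M transition, which encode cyclins, mitotic kinases, spindle, kinetochore and chromosome proteins and the machinery of cytokinesis. They were named in a fixed list and found in the gene count table by Ensembl identifier, and all 46 were present among its 58037 genes. The table holds 3 RNA sequencing libraries of RWPE1 cells, an immortalized line of normal human prostate epithelial cells, with 1 library for each of the genotypes OLFM4-wild, OLFM4-Knock out and OLFM4-Active. OLFM4 encodes olfactomedin 4, a secreted glycoprotein. The study named comparisons of the latter genotypes with OLFM4-wild in its design, whereas its paper reports RNA sequencing results for the knockout comparison only. According to its methods, the GFP reporter cells were stable lines selected with puromycin after transfection of CRISPR/Cas9 plasmids, with double nickase plasmids for the knockout and activation plasmids for the OLFM4-wild reporter cells, and RNA came from cells sorted for GFP. The lines are also described as clones, and how the OLFM4-Active library relates to the activation plasmids beyond its label was not given in the sources used here. No treatment was labelled. The libraries are called wild-type, knockout and active-labelled below.

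Cells that enter mitosis accumulate cyclin B with CDK1, and this kinase, together with the Polo and Aurora kinases, drives spindle assembly and chromosome condensation. The spindle checkpoint holds the anaphase-promoting complex (APC/C) inactive until every kinetochore is attached, after which CDC20 activates it and securin and the cyclins are degraded. Most of these genes are transcribed late in the cycle, through a promoter element called CHR, which the DREAM and MMB complexes bind, and through CCAAT boxes bound by NF-Y, so in bulk RNA their levels follow the share of dividing cells as well as the RNA per dividing cell. Those 2 contributions cannot be told apart here.

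The counts summed to between 16309906 in the wild-type library and 58837147 in the knockout library. Levels are given as CPM, counts relative to library size, after scaling of the sizes with TMM factors (trimmed mean of M values) between 0.872 and 1.11. With 1 library per genotype no test between genotypes could be made, and every 95% interval below is a Clopper-Pearson interval for counting error only. OLFM4 itself had 214 counts in the wild-type library, 131 in the knockout library and 16 in the active-labelled library. Relative to library size these were 11.8, 2.55 and 0.67 CPM. The last value, the lowest, went against its label, so the term active-labelled repeats the label only, and no direction below is tied to OLFM4 activity. Basal epithelial markers (KRT5, KRT14, KRT15, TP63 and ITGA6) summed to 17950 CPM, 39790 CPM and 21390 CPM in the wild-type, knockout and active-labelled libraries. KLK2, a secretory gene of luminal prostate cells, was at 0 in all 3 libraries. The marker sums of other cell types ranged from 22.9 to 34.1 CPM for fibroblast and stromal genes, from 19.8 to 31.4 CPM for leukocyte genes, from 0.460 to 1.76 CPM for endothelial genes and from 3.58 to 13.3 CPM for neuroendocrine genes. Among these, COL3A1, LUM, CD3E, LYZ and CDH5 were at 0 in all 3 libraries. Most of each sum in the wild-type library came from 1 gene, COL1A1 at 30.2 CPM, CD68 at 31.4 CPM, KDR at 1.16 CPM and ENO2 at 12.8 CPM, in the order given.

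Together, the mitotic genes took up less of the RNA in the knockout library and the active-labelled library than in the wild-type library. Their summed level was 7385 CPM (95% interval 7345 to 7424) in the wild-type library, 5249 CPM (5229 to 5269) in the knockout library and 6139 CPM (6108 to 6171) in the active-labelled library. The wild-type library was thus the highest and the knockout library the lowest. On the log2 scale the sum differed from wild-type by -0.49 (-0.50 to -0.48) in the knockout library and by -0.27 (-0.28 to -0.26) in the active-labelled library. The order did not depend on TMM, since the genes held 0.823% of the raw counts in the wild-type, 0.458% in the knockout and 0.632% in the active-labelled library. All 46 genes had a mean of at least 10 CPM, and the lowest single count was 245, for GTSE1 in the active-labelled library.

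Gene by gene, the knockout library was lower than wild-type for 42 genes and higher for 4. The median log2 fold change was -0.44, with quartiles of -0.70 and -0.24, whereas the background, the 16600 genes that averaged 1 CPM or more across the 3 libraries, had a median of 0.10. Of the background, 7195 genes were lower and 9405 higher. A log2 fold change below -0.5 was found for 21 of the 46 genes, against 18.6% of the background, and none exceeded 0.5, against 23.6% of the background. CKAP2L, MKI67, HJURP and CENPF were below -1, that is 4 of 46 genes (8.70%), against 7.56% of the background. The counting interval lay wholly below 0 for 40 genes (29.8% of the background) and wholly above 0 for 3 (42.4% of the background). The background holds many genes with lower counts than the mitotic genes, all of which averaged at least 10 CPM. Among the 10597 genes at that level the median was 0.17, with 11.3% below -0.5, 2.93% below -1 and 25.3% above 0.5. These genes were not matched in depth either, as only 11.9% of the 16600 background genes had a higher mean CPM than the median mitotic gene. The share of mitotic genes below -1 rests on 4 genes. With library totals in place of TMM every log2 fold change of this comparison was lower by 0.35. This moved the median of the 46 genes to -0.79 and that of the background to -0.26. Below 0 lay 45 of the 46 genes and 11201 of the 16600 background genes. CDC20 was then at 0.0016, within counting error of 0. In the same way every value against wild-type was lower by 0.11 in the active-labelled library. There 43 genes were below 0 and 3 above, against 9275 and 7325 of the background.

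The active-labelled library was lower than wild-type for 40 genes and higher for 6, against 7657 and 8943 of the background. The median log2 fold change was -0.42, with quartiles of -0.61 and -0.21, against a background median of 0.05. Below -0.5 lay 19 genes (17.3% of the background) and above 0.5 lay 0 (15.7% of the background). HJURP and CENPA were below -1, 2 of 46 genes (4.35%), against 6.73% of the background. Among genes that averaged at least 10 CPM the median was 0.10, with 9.53% below -0.5, 2.49% below -1 and 14.4% above 0.5. Intervals wholly below 0 were found for 38 genes (28.1% of the background) and wholly above 0 for 5 (35.2% of the background). Both comparisons use the same wild-type library, so a high count in that library lowers both values of a gene. They are therefore given side by side and not counted as repeats of each other.

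Set directly against each other, the knockout library and the active-labelled library had a median log2 fold change of 0.02 over the 46 genes, near the background median of 0.08. The knockout library was lower for 22 genes and higher for 24, against 7196 and 9404 of the background. With library totals, which lowered every value by 0.24, these became 39 and 7, against 10520 and 6080 of the background. Intervals lay wholly below 0 for 21 genes (28% of the background) and wholly above 0 for another 21 (39.8% of the background). Below -0.5 lay 8 genes (13.7% of the background), below -1 MKI67 and CKAP2L (2 genes, 3.39% of the background), and above 0.5 only KIF20A (18.6% of the background). Of the genes that averaged at least 10 CPM, 10.1% were below -0.5, 1.94% below -1 and 16.8% above 0.5. KIF20A was just past that limit at 0.505, and came to 0.27 with library totals, 0.40 with upper quartile factors, 0.49 with DESeq2 size factors and 0.465 with all libraries thinned to the smallest total. The medians of these libraries were close, but single genes differed in both directions by more than their counting error.

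**Figure D1:**
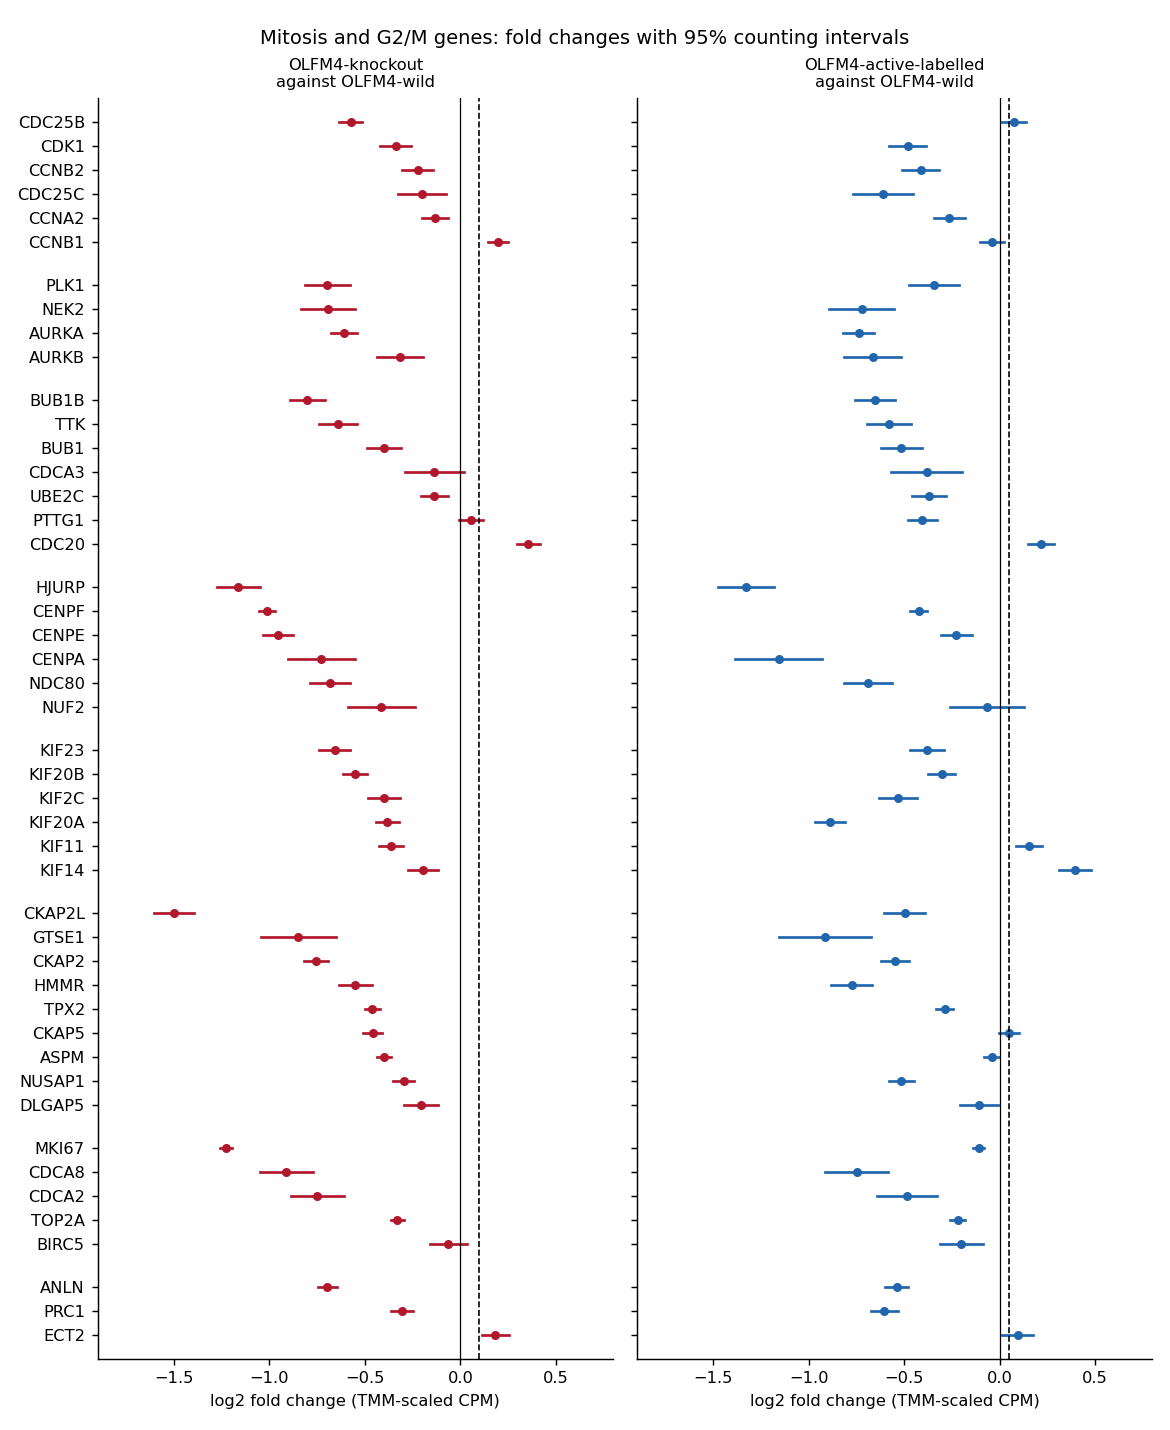
Log2 fold change of each of the 46 genes (points) with its 95% counting interval (bars) in the knockout library (left) and the active-labelled library (right), both against wild-type, with genes grouped by role from cyclins at the top to cytokinesis at the bottom; the dashed line is the median of the 16600 background genes. Most points lie left of the dashed line in both panels, with CKAP2L, MKI67, HJURP and CENPF farthest left in the left panel and CDC20, CCNB1, ECT2 and PTTG1 right of 0, the last 3 of which fall left of 0 with library totals, where CDC20 lies at 0.0016.

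The ends of the knockout comparison were marked by CKAP2L, MKI67, HJURP and CENPF below -1 and by CDC20, CCNB1, ECT2 and PTTG1 above 0, of which CCNB1, ECT2 and PTTG1 fell below 0 with library totals (-0.16, -0.17 and -0.30) and CDC20 came to 0.0016. Their promoters are shown, picked after these values were seen, because CHR elements and CCAAT boxes are the known promoter features of such genes. Each line gives the 250 bases before the first listed RefSeq start of the gene on GRCh38.p14, read 5′ to 3′ on the strand of the gene, with CHR matches (TTTGAA) and CCAAT matches on either strand in capitals.
CKAP2L, chr2:112764610-112764859, minus strand: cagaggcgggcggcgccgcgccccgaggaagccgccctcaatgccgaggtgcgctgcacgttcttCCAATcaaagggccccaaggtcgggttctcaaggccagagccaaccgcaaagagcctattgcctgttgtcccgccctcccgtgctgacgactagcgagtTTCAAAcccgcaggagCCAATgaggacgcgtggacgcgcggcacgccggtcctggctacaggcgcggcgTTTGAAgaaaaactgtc
MKI67, chr10:128126424-128126673, minus strand: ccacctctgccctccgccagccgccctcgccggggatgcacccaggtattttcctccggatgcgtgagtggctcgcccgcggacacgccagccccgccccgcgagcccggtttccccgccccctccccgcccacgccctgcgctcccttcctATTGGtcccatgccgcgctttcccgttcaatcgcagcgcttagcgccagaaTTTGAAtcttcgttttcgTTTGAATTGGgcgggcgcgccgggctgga
HJURP, chr2:233854536-233854785, minus strand: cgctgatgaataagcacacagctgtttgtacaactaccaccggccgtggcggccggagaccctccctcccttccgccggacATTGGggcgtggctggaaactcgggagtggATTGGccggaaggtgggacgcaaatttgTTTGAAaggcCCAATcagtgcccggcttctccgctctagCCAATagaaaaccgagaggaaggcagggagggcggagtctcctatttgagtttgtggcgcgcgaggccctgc
CENPF, chr1:214602945-214603194, plus strand: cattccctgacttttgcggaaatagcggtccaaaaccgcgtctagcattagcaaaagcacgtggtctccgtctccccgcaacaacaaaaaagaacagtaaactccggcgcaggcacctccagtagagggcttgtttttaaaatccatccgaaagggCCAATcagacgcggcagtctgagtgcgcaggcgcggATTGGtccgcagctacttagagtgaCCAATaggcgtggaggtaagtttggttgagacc
CDC20, chr1:43358731-43358980, plus strand: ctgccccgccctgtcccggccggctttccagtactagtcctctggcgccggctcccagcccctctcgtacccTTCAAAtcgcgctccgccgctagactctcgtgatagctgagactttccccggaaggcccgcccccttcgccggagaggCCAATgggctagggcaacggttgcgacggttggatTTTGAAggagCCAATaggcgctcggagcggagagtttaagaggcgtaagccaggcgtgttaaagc
CCNB1, chr5:69166900-69167149, plus strand: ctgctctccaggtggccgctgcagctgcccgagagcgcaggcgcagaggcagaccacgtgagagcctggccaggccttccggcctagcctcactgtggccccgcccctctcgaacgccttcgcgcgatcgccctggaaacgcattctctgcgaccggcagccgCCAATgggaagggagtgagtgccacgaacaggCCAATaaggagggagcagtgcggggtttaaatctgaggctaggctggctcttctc
ECT2, chr3:172750476-172750725, plus strand: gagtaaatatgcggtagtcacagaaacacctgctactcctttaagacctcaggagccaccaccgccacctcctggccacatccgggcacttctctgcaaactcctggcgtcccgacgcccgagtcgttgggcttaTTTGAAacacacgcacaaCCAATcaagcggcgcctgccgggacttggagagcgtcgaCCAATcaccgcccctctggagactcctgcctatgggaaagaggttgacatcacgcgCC
PTTG1, chr5:160421605-160421854, plus strand: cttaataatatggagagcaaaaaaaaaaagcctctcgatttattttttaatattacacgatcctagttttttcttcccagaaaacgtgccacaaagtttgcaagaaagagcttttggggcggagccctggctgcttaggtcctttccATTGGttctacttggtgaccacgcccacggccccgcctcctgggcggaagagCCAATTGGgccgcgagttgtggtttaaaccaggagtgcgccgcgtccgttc
In this stretch, CCAAT boxes are present in all 8 promoters, and CHR matches in CKAP2L, MKI67, HJURP, CDC20 and ECT2. In MKI67 a CHR match and a CCAAT box share a base, and in PTTG1 a pair of CCAAT boxes on opposite strands overlap. Both ends of the range thus held promoters with and without a CHR match before the start, CENPF at the lower end and CCNB1 and PTTG1 at the upper end being without one.

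Over 300 bases, from 250 before to 50 after the start, RefSeq promoters were matched for 40 of the 46 genes. AURKA, TTK, UBE2C, TPX2, BIRC5 and CDCA2 had no entry, and 6 genes with several starts were taken at the first listed. CHR was found in 28 of the 40 promoters (70.0%), against 12.1% of the promoters of 15843 protein-coding genes searched in the same way. At least 1 CCAAT box was present in 31 (77.5%, against 36.4%), at least 2 in 21 (52.5%, against 12.5%), and both CHR and a CCAAT box in 24 (60.0%, against 5.02%). The CHR variant TTCGAA was found in 2 promoters (5.0%, against 1.57%), the E2F motif TTCCCGC in 4 (10%, against 8.6%), the other E2F motif TTTGGCG in 3 (7.5%, against 2.41%) and the E-box CACGTG in 5 (12.5%, against 8.88%). CHR and CCAAT matches shared bases in CDCA8 and MKI67. The genes chosen for their role in mitosis thus also shared promoter letters that the list had not used.

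CHR matches centred close to the start, with a median first base at -26 over 39 matches, and CCAAT boxes lay further upstream, with a median of -73 over 69 matches. Neighbouring CCAAT boxes in a promoter were a median of 39.5 bases apart. In the knockout against the wild-type library the median was -0.51 for the 28 genes with CHR and -0.39 for those without, and -0.38 for the 31 genes with a CCAAT box and -0.68 for those without. For the active-labelled library the medians were -0.40 with CHR and -0.52 without, the reverse order, and -0.41 with a CCAAT box and -0.54 without, the same order as in the knockout library. These differences were not tested.

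**Figure D2:**
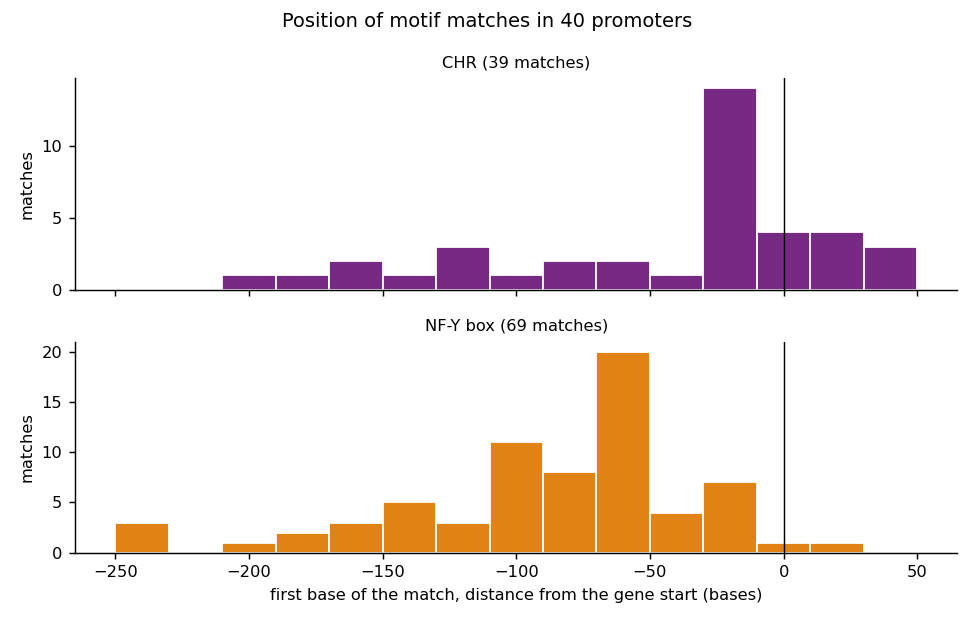
Number of CHR matches (top, 39) and of CCAAT boxes bound by NF-Y (bottom, 69) by the distance in bases of their first base from the gene start (0, vertical line), in bins of 20 bases over 40 promoters. CHR matches are most frequent just before the start (median -26) and NF-Y boxes further upstream (median -73).

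The cyclins, CDK1 and the CDC25 phosphatases had a median of -0.21 in the knockout and -0.34 in the active-labelled library against wild-type, and the B-type cyclins differed from each other. CCNB1, the main cyclin of mitotic entry, was measured at 206 CPM in the wild-type, 236 CPM in the knockout and 200 CPM in the active-labelled library, so with TMM, but not with library totals, the knockout library was the highest. Its log2 fold changes against wild-type were 0.20 (0.14 to 0.25) and -0.04 (-0.10 to 0.02), the latter within counting error. Its paralog CCNB2 was at 97.2, 83.3 and 73.0 CPM in the same order of libraries, and was highest in wild-type. CCNA2, the A-type cyclin of S phase and G2, was at 132, 120 and 110 CPM, and CDK1, the catalytic partner of these cyclins, at 99.6, 78.8 and 71.3 CPM. The phosphatases that activate CDK1 went separate ways. CDC25B was at 188 CPM in the wild-type, 127 CPM in the knockout and 198 CPM in the active-labelled library, and CDC25C at 39.4, 34.2 and 25.7 CPM. In the knockout against the active-labelled library their log2 fold changes were -0.65 and 0.41, a gap of -1.06 that was the widest of the 6 paralog pairs compared.

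All 4 mitotic kinases were highest in the wild-type library. PLK1, the Polo kinase of mitotic entry and spindle assembly, was at 50.9 CPM in the wild-type, 31.4 CPM in the knockout and 40.1 CPM in the active-labelled library, with log2 fold changes against wild-type of -0.70 (-0.82 to -0.58) and -0.34 (-0.47 to -0.21). AURKA, the Aurora kinase of the spindle poles, was at 151, 99.1 and 90.7 CPM, and AURKB, the Aurora kinase of the chromosomal passenger complex, at 44.3, 35.5 and 27.9 CPM. NEK2, a centrosomal kinase, was at 34.9, 21.6 and 21.1 CPM, the latter pair within each other's counting error. The group had medians of -0.65 in the knockout and -0.69 in the active-labelled library against wild-type.

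The spindle checkpoint and anaphase group had a median of -0.14 in the knockout library, and its members differed from each other. The checkpoint kinases and the kinase-like BUB1B, which restrain the APC/C, were lower than in wild-type. BUB1B was at 87.9 CPM in the wild-type, 50.4 CPM in the knockout and 55.9 CPM in the active-labelled library, TTK at 72.3, 46.3 and 48.3 CPM, and BUB1 at 82.2, 62.2 and 57.5 CPM. BUB1B overlaps PAK6 and BUB1B-PAK6 on the same strand, so part of its fragments may have been left uncounted. The genes that act when the APC/C is released differed less from wild-type. The low values of BUB1, BUB1B and TTK were not shared across 16 other outer kinetochore and checkpoint genes. With TMM 13 of these were above wild-type and 3 below, against 9405 and 7195 of the 16600 background genes. Their median of 0.13 became -0.22 with library totals, against -0.26 for the background. The contrast within the group also ran with exon length, 4463 to 6304 bases for BUB1, BUB1B and TTK and 1286 to 2012 for CDC20, PTTG1 and UBE2C. CDCA3, at 4879 bases, was an exception, and the part of length was not tested. CDC20, its mitotic activator, was at 157 CPM in the wild-type, 201 CPM in the knockout and 182 CPM in the active-labelled library, with log2 fold changes of 0.35 (0.29 to 0.41) and 0.22 (0.15 to 0.28), and was highest in the knockout library with TMM, whereas with library totals its knockout and wild-type levels were within counting error of each other. PTTG1, which encodes securin, was at 153, 159 and 116 CPM, its knockout value being within counting error of wild-type (0.06, -0.01 to 0.12). UBE2C, the ubiquitin-conjugating enzyme of the APC/C, was at 119, 108 and 91.7 CPM, and CDCA3, a substrate of the APC/C, at 26.3, 23.9 and 20.1 CPM. In the active-labelled library the same group had a median of -0.41, with CDC20 alone above 0.

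The kinetochore and centromere genes had the lowest median of the 8 role groups in the knockout library, -0.84, and 5 of the 6 lay below -0.5 (18.6% of the background). HJURP, the chaperone that deposits the centromeric histone, was at 61.5 CPM in the wild-type, 27.5 CPM in the knockout and 24.5 CPM in the active-labelled library, with log2 fold changes of -1.16 (-1.28 to -1.05) and -1.33 (-1.47 to -1.18). CENPA, the histone H3 variant that HJURP deposits, was at 23.4, 14.1 and 10.5 CPM, with log2 fold changes of -0.73 (-0.90 to -0.55) and -1.16 (-1.39 to -0.93). The chaperone and its histone were both highest in wild-type, and CENPA overlaps SLC35F6 on the same strand. CENPF, a large kinetochore protein of late G2, was at 456 CPM in the wild-type, 226 CPM in the knockout and 340 CPM in the active-labelled library, and CENPE, the kinetochore motor, at 127, 65.6 and 109 CPM. For both, the active-labelled library lay between the others, and their log2 fold changes in the knockout library were -1.01 and -0.96. The microtubule-binding NDC80 was at 64.6, 40.2 and 40.1 CPM and its partner NUF2 at 21.7, 16.3 and 20.7 CPM, so the pair differed in the active-labelled library, where NUF2 was within counting error of wild-type (-0.07, -0.26 to 0.13).

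Mitotic kinesins, the motors that build and slide spindle microtubules, were all lower in the knockout than in the wild-type library, with a median of -0.39 and a range from -0.66 for KIF23 to -0.20 for KIF14. The active-labelled library ranged more widely, from -0.89 for KIF20A to 0.39 for KIF14. KIF11, the motor that separates the spindle poles, was at 154 CPM in the wild-type, 120 CPM in the knockout and 171 CPM in the active-labelled library, and KIF14, a motor of cytokinesis, at 103, 89.8 and 135 CPM. Both were highest in the active-labelled library. KIF20A, a central spindle motor, showed another order, at 182, 140 and 98.4 CPM, with the active-labelled library lowest. Its relative KIF20B was at 171, 116 and 138 CPM, the centralspindlin motor KIF23 at 109, 68.8 and 83.4 CPM, and the microtubule depolymerase KIF2C at 91.9, 69.6 and 63.5 CPM.

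All 9 spindle and microtubule-binding genes were lower in the knockout library, with a median of -0.46. CKAP2L, a spindle protein related to CKAP2, had the lowest log2 fold change of the 46 genes. It was counted 1520 times in the wild-type, 1519 times in the knockout and 1415 times in the active-labelled library, which at these depths gave 83.7, 29.6 and 59.2 CPM. Its log2 fold changes were -1.50 (-1.60 to -1.40) and -0.50 (-0.60 to -0.39). CKAP2, which stabilizes microtubules, was at 173, 102 and 118 CPM, with log2 fold changes of -0.76 and -0.55, so CKAP2 minus CKAP2L came to 0.74 in the knockout and to -0.05 in the active-labelled library. GTSE1, a microtubule-associated protein of G2 and S phase, was at 19.3, 10.7 and 10.3 CPM. HMMR, the hyaluronan-mediated motility receptor that also binds the spindle, was at 87.2, 59.6 and 50.9 CPM. Both were higher in wild-type by more than counting error.

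The spindle assembly factor TPX2, which activates AURKA, was at 441 CPM in the wild-type, 320 CPM in the knockout and 361 CPM in the active-labelled library. NUSAP1, which bundles spindle microtubules, was at 202, 165 and 142 CPM, and shares exon sequence on the same strand with OIP5-AS1. DLGAP5, a spindle assembly protein, was at 82.1, 71.1 and 76.1 CPM. ASPM and CKAP5 were lowest in the knockout library and close to wild-type in the other. ASPM, a protein of the spindle poles, was at 496, 376 and 482 CPM, and CKAP5, a microtubule polymerase, at 274, 199 and 283 CPM. In the active-labelled library their log2 fold changes against wild-type were -0.04 (-0.08 to -0.0018) and 0.05 (-0.0045 to 0.10).

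Of the mitotic chromosome and passenger proteins, MKI67 showed the widest gap of the 46 genes between the knockout library and the active-labelled library, -1.12 on the log2 scale. MKI67 encodes Ki-67, the proliferation marker that coats mitotic chromosomes, and was at 943 CPM in the wild-type, 403 CPM in the knockout and 874 CPM in the active-labelled library. Its log2 fold change was -1.23 (-1.26 to -1.20) in the knockout and -0.11 (-0.14 to -0.08) in the active-labelled library. TOP2A, the DNA topoisomerase of chromosome condensation and segregation, was at 541, 430 and 464 CPM, with log2 fold changes of -0.33 and -0.22. The passenger complex subunits BIRC5 (survivin) and CDCA8 (borealin) differed in the knockout library. BIRC5 was at 66.5, 63.6 and 57.8 CPM, within counting error of wild-type in the knockout library (-0.06, -0.16 to 0.03), and CDCA8 at 38.4, 20.4 and 22.8 CPM, with a log2 fold change of -0.91 (-1.05 to -0.77). CDCA2, which brings a phosphatase to chromosomes at mitotic exit, was at 38.4, 22.9 and 27.4 CPM.

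Of the 3 cytokinesis genes, ECT2 stood apart from the others. ANLN, the contractile ring scaffold anillin, was at 277 CPM in the wild-type, 171 CPM in the knockout and 190 CPM in the active-labelled library, and PRC1, the microtubule bundler of the midzone, at 200.3, 162 and 132 CPM. ECT2, the exchange factor that activates RhoA at the cleavage furrow, was at 117, 133 and 125 CPM and was lowest in wild-type, with log2 fold changes of 0.18 (0.11 to 0.25) and 0.09 (0.01 to 0.18) that turned negative with library totals.

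Levels between genes were compared as CPM per kilobase of merged exons. In the wild-type library they ran from 122 for TPX2, followed by UBE2C at 92.2, TOP2A at 84.9, CCNB1 at 84.6 and CDC20 at 78.1, down to 4.70 for GTSE1. CCNB1 and TOP2A could not be ordered, as they differed by less than their counting error. The ranks were largely kept, with a Spearman coefficient across the 46 genes of 0.97 between wild-type and knockout and of 0.96 between wild-type and active-labelled, given as a description since the points share the gene lengths. CDC20 was at the top in the knockout library, and TPX2 was at the top in the other two.

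**Figure D3:**
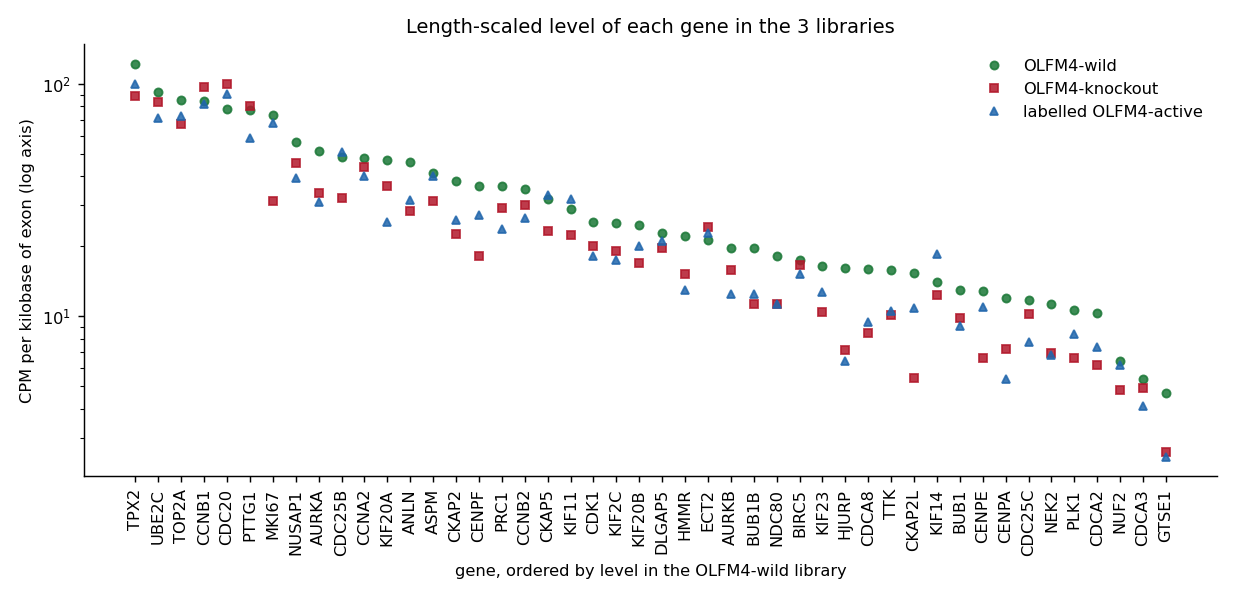
CPM per kilobase of merged exons (vertical log axis) of each gene in the wild-type (circles), knockout (squares) and active-labelled (triangles) libraries, 1 value each, with genes ordered by the wild-type level. Circles lie above the other symbols for most genes, from TPX2 at 122 down to GTSE1 at 4.70, with CDC20, CCNB1, ECT2 and KIF14 among the exceptions.

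Gene length moved with the difference of the knockout library. Across the 46 genes the Spearman coefficient of exon length with the log2 fold change was -0.33 in the knockout against wild-type, 0.28 in the active-labelled against wild-type, and -0.62 in the knockout against the active-labelled library. Over 12795 expressed protein-coding genes the same coefficients were -0.26, 0.03 and -0.37, so the relation was not limited to mitotic genes. The 10 members under 3000 bases had a median of -0.18 in the knockout against the wild-type library, where protein-coding genes of that length had 0.32. For the 26 members from 3000 to under 6000 bases the medians were -0.51 and 0.17, and for the 10 members of at least 6000 bases -0.51 and -0.05. In every length class the mitotic genes were thus lower than protein-coding genes of like length. Of the 10 longest, all but BUB1 were lower in the knockout than in the active-labelled library. Their median there was -0.43, and that of protein-coding genes of at least 6000 bases was -0.09, also below 0. The part of length in the values of single genes was not tested.

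**Figure D4:**
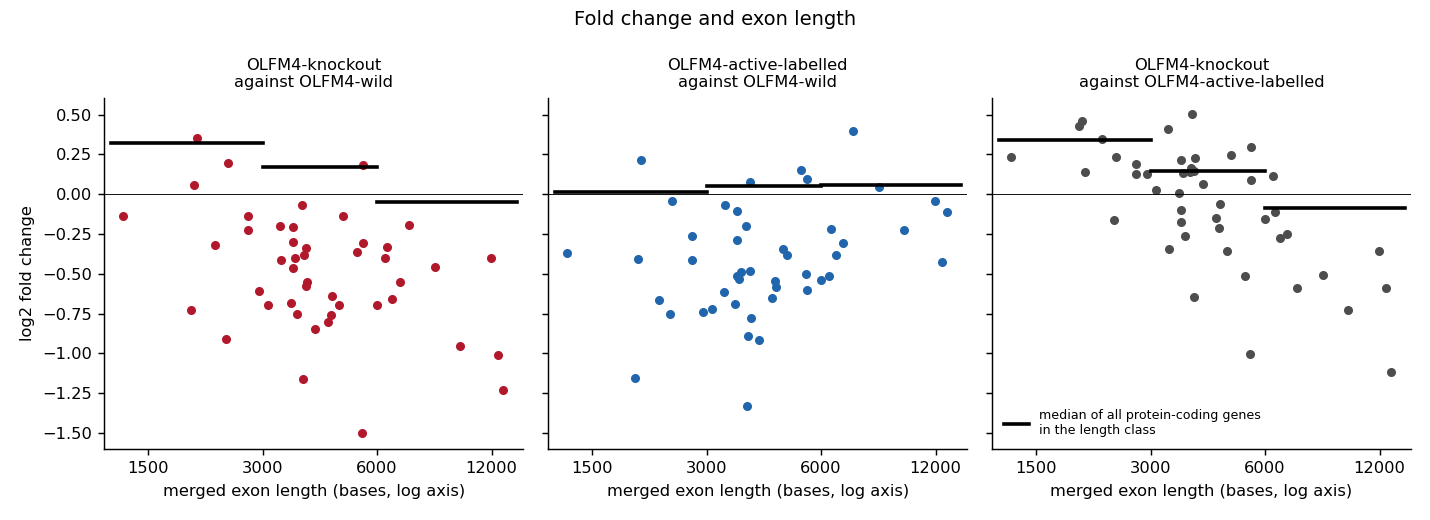
Log2 fold change of each of the 46 genes (points) against merged exon length in bases (log axis) in the 3 comparisons, with black bars at the median of all expressed protein-coding genes in the classes under 3000, from 3000 to under 6000 and of at least 6000 bases. In the right panel the points run downwards with length, with medians of 0.21, 0.02 and -0.43 in the 3 classes, and in the left panel most points lie below the bars.

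Other genes of the same pathways did not show the same differences throughout. DNA replication and S phase genes, 35 in number, had a median of 0.39 in the knockout against the wild-type library, with 12 of 35 above 0.5 (23.6% of the background) and 2 below -0.5 (18.6% of the background), from 1.29 for the G1/S cyclin CCNE1 to -0.57 for the thymidylate synthase TYMS. In the active-labelled library the S phase median was 0.04. The 16 APC/C genes, whose products CDC20 and UBE2C work with, had a median of 0.36 in the knockout library, with 4 of 16 above 0.5, a share near the 23.6% of the background, and 0 below -0.5, from 0.91 for ANAPC4 to -0.33 for CDC23. Both medians lay above the background median of 0.10, or of 0.17 for genes that averaged at least 10 CPM, on the other side from the 46 genes. With library totals their medians were 0.03 and 0.01, against -0.26 for the background.

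Among the structural lists, cohesin, shugoshin and separase genes (12) were nearest to the 46 genes in the knockout library, with a median of -0.49 and 6 of 12 below -0.5 (18.6% of the background), from SGO1, the protector of centromeric cohesion, at -1.10 to the cohesin subunit STAG1 at 0.17. In the active-labelled library their median was 0.09, near the 0.10 of genes that averaged at least 10 CPM. Above 0 lay 7 of 12, against 8943 of the 16600 background genes. Below -0.5 lay 3 (17.3% of the background), SGO1 among them at -0.72. Other mitotic kinesins and centralspindlin (8) had medians of -0.20 and -0.23, from KIF18B at -1.07 to KIF22 at 0.20 in the knockout library, and condensin subunits (8) had -0.10 and 0.05, from NCAPG at -0.54 to NCAPH2 at 0.70. Kinetochore genes beyond the 46 did not follow the kinetochore members. The inner centromere network (16) had medians of 0.20 and -0.08, from CENPQ at -0.47 to CENPW at 0.83, and the other outer kinetochore and checkpoint genes (16) had 0.13 and -0.05, from KNL1 at -0.69 to NSL1 at 0.51. The low values of CENPF, CENPE and HJURP were thus not shared across the kinetochore. The medians of the inner centromere and other outer kinetochore lists turned to -0.16 and -0.22 with library totals, still above the background median of -0.26.

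The regulators of late cell cycle transcription (DREAM, MMB and NF-Y, 15 genes) had medians of -0.03 in the knockout and -0.02 in the active-labelled library against wild-type. FOXM1, which joins MMB to activate G2/M genes, was at 89.0 CPM in the wild-type, 55.8 CPM in the knockout and 87.2 CPM in the active-labelled library. Its log2 fold change was -0.67 (-0.76 to -0.58) in the knockout and -0.03 (-0.12 to 0.07) in the active-labelled library, so the former alone was low. MYBL2, the B-MYB subunit of MMB, was at 119, 105 and 126 CPM, and E2F4, a repressive E2F of DREAM, had the highest value of the list in the knockout library, 0.92. G2 checkpoint genes (8) had medians of -0.03 and -0.15, from the stress gene GADD45A at -0.84 to SFN, which encodes 14-3-3 sigma, at 0.92 in the knockout library. SFN was at 864, 1637 and 850 CPM in the wild-type, knockout and active-labelled libraries.

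**Figure D5:**
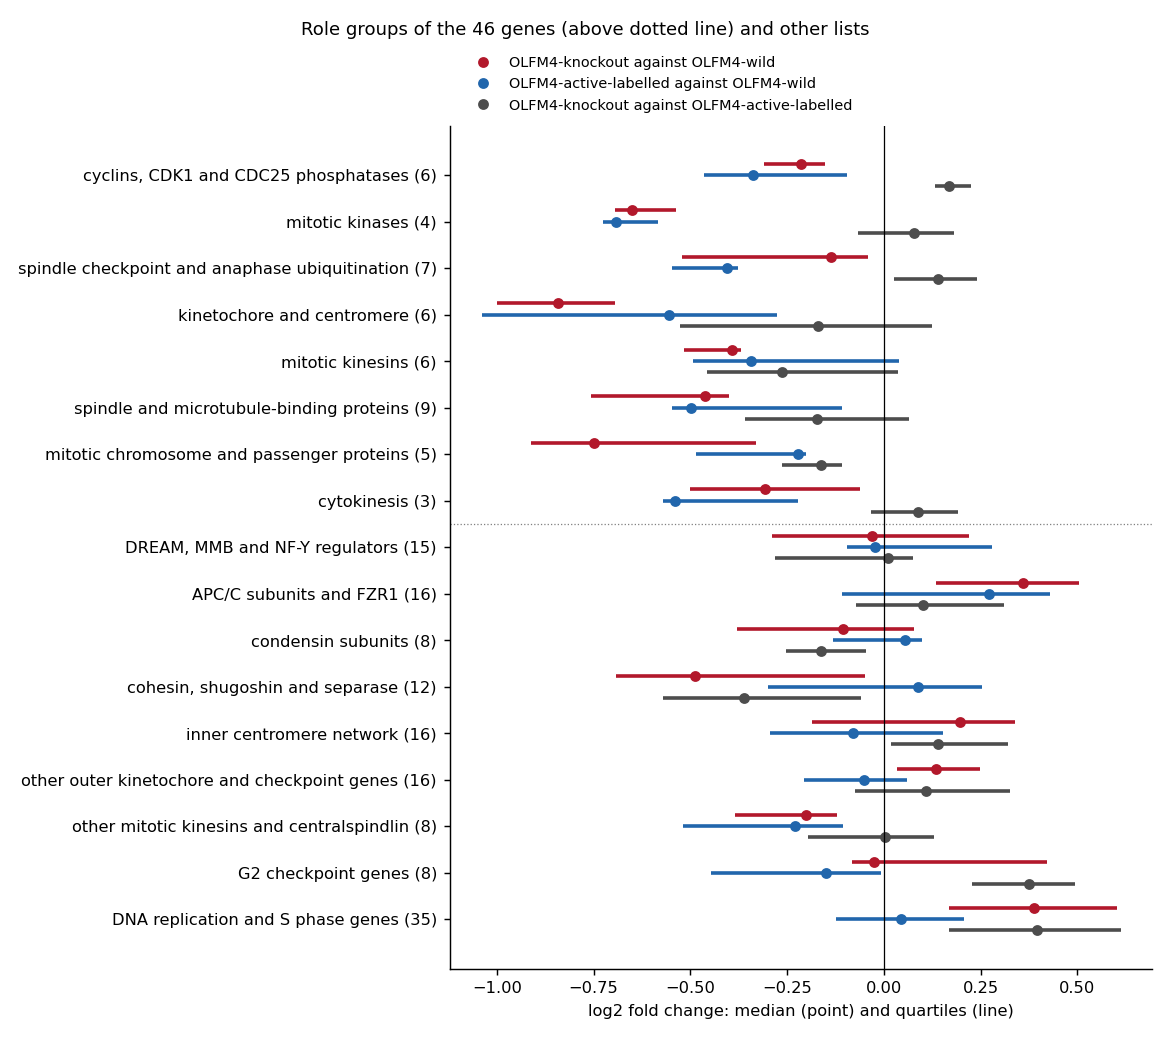
Median (point) and quartiles (line) of the log2 fold change in each of the 8 role groups of the 46 genes (above the dotted line) and in the other lists (below it), with the number of genes in brackets, for the 3 comparisons. All 8 role groups have medians below 0 against wild-type in both libraries, whereas APC/C and S phase genes have medians of 0.36 and 0.39 in the knockout library.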

How the data were processed

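The data are 3 bulk RNA sequencing libraries of RWPE1 cells. According to the study's methods and the labels, total RNA from GFP-sorted cells was depleted of ribosomal RNA, reads were trimmed with cutadapt and aligned to GRCh38 with HISAT2, and uniquely mapped, reversely stranded fragments were counted per gene with featureCounts. The authors deposited whole-number counts, not normalized, and the annotation release is not given in the sources used here. Fragments shared by near-identical copies are left out by unique mapping, and 12 of the 46 genes have annotated pseudogenes.

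Groups were taken from the labels. TMM factors came from edgeR 4.0.16 and log2 CPM followed the voom formula of limma 3.58.1 (offset 0.5) in R 4.3.3. Python 3.11.15 with numpy 2.4.6, pandas 2.3.3, scipy 1.17.1 and matplotlib 3.10.9 did the rest. Intervals are conditional Clopper-Pearson intervals at 95% and were checked on simulated data. Calls were by size (0.5 or 1 on the log2 scale), with genes of a mean of at least 1 CPM as background. Positions and merged exon lengths came from GENCODE 44, and promoters from RefSeq GRCh38.p14. The text names every member, FOXM1, MYBL2, OLFM4, marker genes, and in each other list the genes with the highest and the lowest value in OLFM4-knockout against OLFM4-wild. The 46 genes and all lists were chosen with earlier results of these data known. Protein identity of paralogs was planned and not analysed here. The sum of the luminal marker list is not reported here.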

Additional observations from a re-analysis of the deposited data

How the results depend on the processing

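No paired analysis was possible because each genotype had 1 library. TMM was replaced by library totals, by DESeq2 1.42.0 size factors or by upper quartile factors. Other settings used an offset of 5 counts, thinned every library to the smallest total, left the 10 most abundant genes out of library sizes, or asked for a mean of 10 CPM, which kept all 46 genes. No median or count against OLFM4-wild in the library labelled OLFM4-active moved by more than its limit, and no median changed sign there or in the OLFM4-knockout library. With library totals, which lowered every value by 0.35, the OLFM4-knockout against OLFM4-wild median was -0.79 (background -0.26) and 38 genes lay below -0.5. The median was -0.52 with upper quartile factors and -0.34 without the 10 most abundant genes. In the OLFM4-knockout against the OLFM4-active-labelled library, totals gave a median of -0.22 (background -0.16), with 13 genes below -0.5 and 0 above 0.5. Upper quartile and DESeq2 factors also gave 0 genes above 0.5, and leaving out the 10 most abundant genes gave 4 above 0.5 and 4 below -0.5. With 1 library per genotype, a difference between genotypes cannot be told apart from one between single cultures, clones or library preparations, and the 10 most abundant genes held 10.4% to 17.0% of the counts.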
